A study of Bos taurus with 12 samples.

Results

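The Kruppel-like factor (KLF) genes looked for here were KLF2, KLF3, KLF4, KLF5, KLF6, KLF9, KLF10, KLF11, KLF13 and KLF15 in the mammary gland (MG) of Holstein cows. Members were found by matching the RefSeq identifier that the array gives for each probe to a gene symbol in the bovine RefSeq table. This matched 9 of the 10 genes with 21 probes, out of 12639 named genes and 43653 probes in all. KLF2 was matched to no probe and was not analysed here. KLF10 had 1 probe, and the other 8 genes had several, which are numbered below from the brightest (probe 1) to the dimmest. The samples were MG biopsies from 12 multiparous cows in early lactation, at 24 ± 3 days in milk. In the control group (CONT, 6 cows), cows kept free access to a lactation diet, and in the restricted group (REST, 6 cows) the ration was diluted with barley straw at 48% of dry matter for 4 days. All 12 cows had 50 µg of lipopolysaccharide (LPS), a bacterial endotoxin, infused into a healthy rear gland on day 3 and were biopsied 24 h later, so no group was free of the challenge and the comparison is that of diets in challenged glands. Each biopsy was hybridised to 1 one-colour Agilent bovine array, and 1 array stands for 1 cow.

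KLF proteins are transcription factors with zinc fingers at the carboxyl end that bind GC-rich and CACCC elements in promoters, and different members activate or repress overlapping targets. KLF4, KLF5 and KLF6 are linked with epithelial differentiation and proliferation and with responses to injury. KLF9, KLF13 and KLF15 are known for glucocorticoid and metabolic control, and KLF10 and KLF11 were described first as genes induced by transforming growth factor beta. KLF15 is a fasting-responsive regulator of amino acid breakdown, and KLF13 is known in T cells as an activator of the chemokine gene CCL5.

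Values are log2 processed signals minus the 75th percentile of the same array, so that 0 is the level of the 75th percentile probe, and a log2 fold change (FC) is the REST mean minus the CONT mean. Different probes bind with different efficiency, so levels were compared between cows for 1 probe and never between probes. Of the 21 KLF probes, 16 had a signal well above background in every cow, and none was saturated. Across all probes, correlations between arrays ranged from 0.933 to 0.984, and 57.6% to 78.2% of probes per array were well above background. The arrays lay on 3 slides of 4, and slide 1, with 3 CONT cows and 1 REST cow, had brighter negative controls (7.07 to 17.3) than the other slides (3.44 to 4.98), so differences within slides are given beside the pooled difference for the brightest probe of each gene and for the other KLF11 and KLF13 probes. Slide 2 held 1 CONT and 3 REST cows and slide 3 held 2 of each, so a difference within slide 1 rests on a single REST cow (0078) and within slide 2 on a single CONT cow (9040). The labelled tissue was checked with 10 secretory epithelium genes (caseins, LALBA, keratins, EPCAM, ELF5 and CDH1), all of them detected above background in every cow. In a biopsy, fewer cells of a type and less RNA per cell cannot be told apart.

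Most KLF genes had a higher mean in REST than in CONT over the 12 cows, a pattern that was weaker once slide was a block, and no single KLF probe passed the test after adjustment over the whole array. By its brightest probe, 8 of 9 genes were higher in REST, KLF15 being the exception, and the median log2 FC was 0.28. Under the slide block, in which slide is a term of the fit, 6 of 9 genes were higher and the median was 0.04. The median was 0.16 with quantile normalisation, and 0.12, 0.15 and 0.17 without REST cow 0049, 7043 and 1015. Over all named genes, 43.5% had a higher mean in REST and the median log2 FC was -0.03. Of the 20 KLF probes that were well above background on at least 1 array of each diet, 17 were higher and 3 lower in REST. In 7 of the 9 genes, KLF3, KLF4, KLF6, KLF9, KLF10, KLF11 and KLF13, every probe was higher in REST. With Benjamini-Hochberg adjustment (limma), 0% of the 43653 probes had an adjusted p under 0.05, and 0 were called with the Westfall-Young adjustment. The lowest adjusted p of a KLF probe was 0.99992 in limma with Benjamini-Hochberg. Without adjustment, 4 KLF probes had a p under 0.05 in limma, 3 of KLF11 and 1 of KLF13, all of them higher in REST. That count was 1 with slide as a block, and 1 when CONT cow 1024, CONT cow 1076, REST cow 1018 or REST cow 7043 was left out, and 2 without CONT cow 0015 or REST cow 0049. Over all probes 2.62% had such a p in either direction and 1.74% with a higher level in REST. Over the brightest probes of all named genes these shares were 2.64% and 1.63%, and KLF11 was the only KLF gene whose brightest probe was among them.

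**Figure D1:**
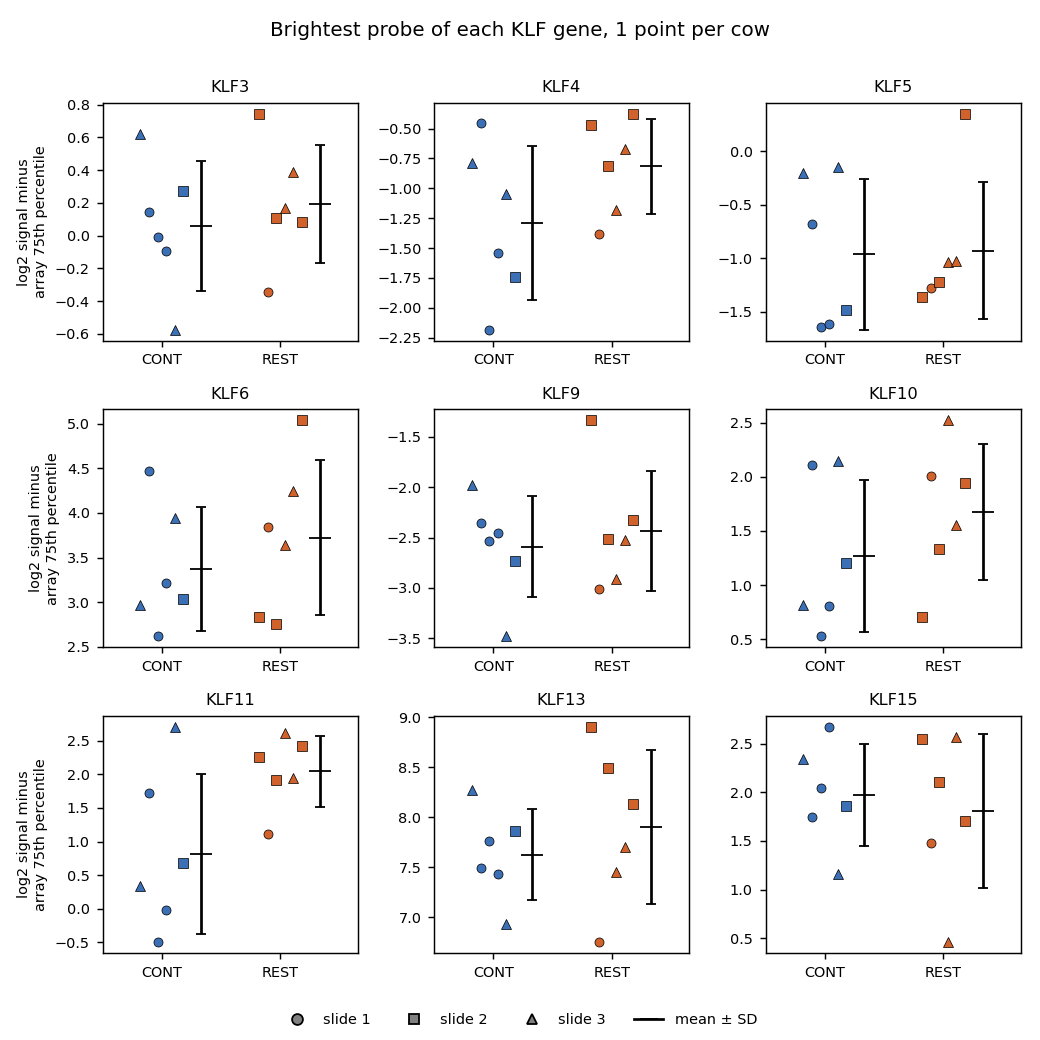
Log2 signal minus the 75th percentile of the array (vertical axis) for the brightest probe of the 9 KLF genes, with 1 point per cow, marker shapes for the 3 slides, and bars for mean ± SD of 6 cows per diet. The groups overlap in all 9 panels, and KLF11 shows the largest difference of means, with a CONT median of 0.50 and a REST median of 2.10.

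KLF11, a repressor that also controls metabolic genes, had the largest log2 FC of the family. For its brightest probe (A_73_104088, NM_001190301), the lowest, median and highest values were -0.50, 0.50 and 2.71 in CONT and 1.11, 2.10 and 2.62 in REST. All 6 REST cows were above the CONT mean, but the groups overlapped, because CONT cow 8027 had the highest value of all 12 cows and CONT cow 0055 (1.72) was above REST cow 0078 (1.11). CONT cows averaged 0.82 ± 1.19 (SD, n = 6) and REST cows 2.04 ± 0.53 (SD, n = 6). This is a log2 FC of 1.23 (SE 0.49, 95% interval 0.17 to 2.28) and an FC of 2.34, with an exact permutation p of 0.0498 (two-sided, unadjusted). KLF11 probe 2 gave 1.13 (SE 0.47, exact permutation p = 0.0541) and followed probe 1 closely across cows (r = 0.993 over 12 cows). KLF11 probe 3 gave 1.23 (SE 0.49, exact permutation p = 0.0498), but it was dim and was well above background in 4 CONT and 5 REST cows. With the normexp background correction, its log2 FC was 0.27, against 1.13 and 1.03 for probes 1 and 2.

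The REST mean of KLF11 was above the CONT mean on every slide. Within slides 1, 2 and 3, the log2 difference of probe 1 was 0.71, 1.52 and 0.76. The same differences were 0.58, 1.57 and 0.68 for probe 2 and 0.90, 1.08 and 0.58 for probe 3. With slide as a block the log2 FC was 0.97 (SE 0.50) and its unadjusted limma p was no longer under 0.05, and the other KLF11 probes gave 0.92 and 0.83. When single cows were left out, the log2 FC of probe 1 ranged from 0.96 without CONT cow 1024 to 1.60 without CONT cow 8027, and the unadjusted limma p was under 0.05 in 7 of 12 such fits, the exceptions being those without CONT cow 1076, 0015 or 1024 or REST cow 1018 or 7043. CONT cows 1024 and 1076, with the lowest KLF11 values (-0.50 and -0.03), were both on slide 1.

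KLF13 had 3 probes (NM_001083533), all with a higher mean in REST, and the dimmest of them separated the diets. The study called this gene higher in restricted cows on these same arrays after Westfall-Young adjustment. No KLF13 probe passed either adjustment here, and the reason for the difference was not tested. The arrays being the same, its direction is not independent evidence. For probe 3 (A_73_P039396), the lowest, median and highest values were 0.10, 0.29 and 0.54 in CONT and 0.64, 0.90 and 1.37 in REST, so every REST cow was above every CONT cow. Over the 43448 probes with a value in all cows, the groups did not overlap in 0.127%, and REST was the higher group in 0.0737%. The log2 FC was 0.63 (SE 0.15, 95% interval 0.30 to 0.96), an FC of 1.55, and the exact permutation p of 0.0022 is the smallest that 6 cows against 6 can give. The difference was 0.31, 0.54 and 0.93 within slides 1, 2 and 3 and 0.63 with slide as a block. It stayed between 0.54 and 0.69 when single cows were left out, with an unadjusted limma p under 0.05 in 12 of 12 fits.

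The other KLF13 probes showed less separation of the diets. KLF13 probe 1, with values of 6.93, 7.63 and 8.27 (lowest, median and highest) in CONT and 6.75, 7.91 and 8.91 in REST, overlapped widely. On slide 1 its REST cow was lower than the CONT mean by a log2 difference of -0.81, on slide 2 the difference was 0.65, and on slide 3 it was -0.03, so that the log2 FC of 0.28 (SE 0.34) turned to -0.06 with slide as a block. Single cows also moved it, to 0.08 without REST cow 0049 and to 0.51 without REST cow 0078. With quantile normalisation it was 0.16. The highest value of probe 1 was that of cow 0049, whose array had the lowest 75th percentile of the 12 (386.9). The part of the array scale in the values of probe 1 was not tested. KLF13 probe 2 gave 0.43 (SE 0.23, exact permutation p = 0.0714), with 4 of 6 REST cows above all CONT cows, and its differences within slides 1, 2 and 3 were -0.12, 0.27 and 0.77. Probes 1 and 3 were only loosely related across cows (r = 0.297 over 12 cows), whereas probe 2 was related to probe 1 (r = 0.655) and to probe 3 (r = 0.774). The probes are all assigned to the same RefSeq transcript, and which part of it each one reads was not analysed here.

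**Figure D2:**
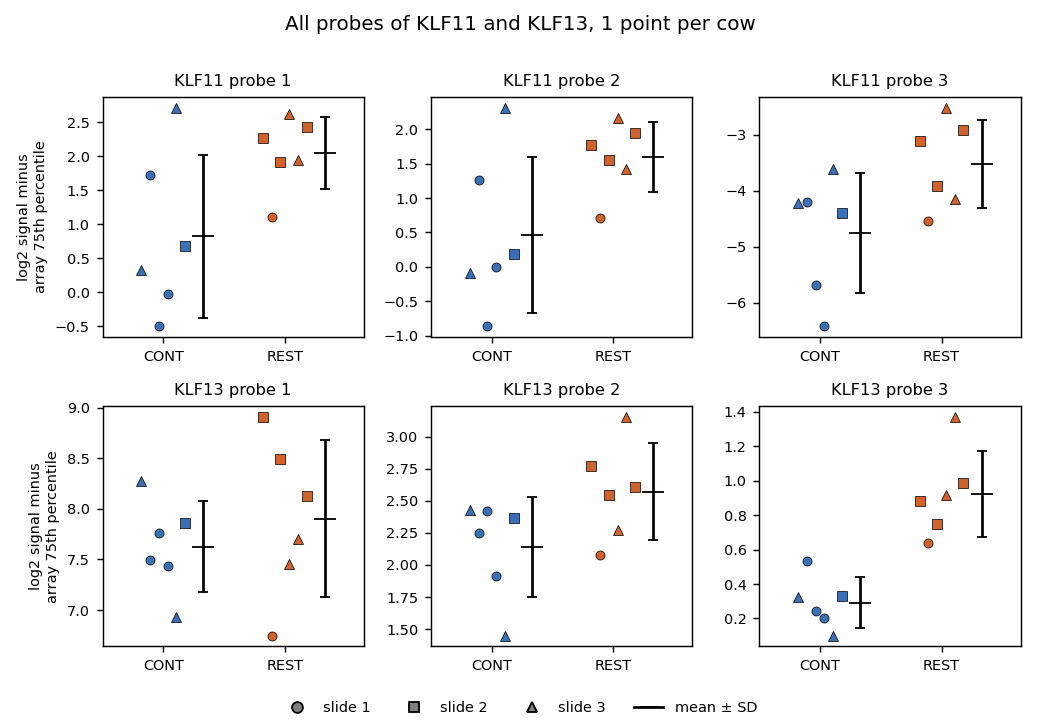
Log2 signal minus the 75th percentile of the array (vertical axis) for each of the 3 probes of KLF11 (top) and KLF13 (bottom), ordered from the brightest to the dimmest, with 1 point per cow, shapes for slides, and bars for mean ± SD of 6 cows. The KLF11 probes share a pattern in which CONT cow 8027 lies with or above the REST cows, and KLF13 probe 3 is the only panel without overlap (CONT up to 0.54, REST from 0.64).

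KLF6 and KLF10 are rapidly induced genes, KLF6 after tissue injury and KLF10 after transforming growth factor beta, and both had a higher REST mean on every slide without passing the test. For the brightest KLF6 probe (A_73_105540, NM_001035271), the lowest, median and highest values were 2.62, 3.12 and 4.48 in CONT and 2.75, 3.74 and 5.04 in REST. The log2 FC was 0.35 (SE 0.42, 95% interval -0.56 to 1.26), and the difference within the slides was 0.40, 0.50 and 0.49. The spread within each diet, with SDs of 0.70 in CONT and 0.87 in REST, was wider than the difference. The other KLF6 probes gave 0.44 (SE 0.43) and 0.54 (SE 0.45), and the 3 probes agreed in how they ordered the cows (r from 0.929 to 0.987). Without REST cow 7043, which had the highest value, the log2 FC of the brightest probe was 0.09.

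KLF10 (A_73_118231, NM_001168462) had values of 0.53, 1.01 and 2.15 in CONT and 0.71, 1.75 and 2.52 in REST (lowest, median and highest). Its log2 FC was 0.41 (SE 0.36, 95% interval -0.37 to 1.19, exact permutation p = 0.303), and 5 of 6 REST cows were above the CONT mean although the groups overlapped widely. Within slides 1, 2 and 3, the difference was 0.86, 0.12 and 0.56. Without REST cow 1018, which had the highest value, the log2 FC was 0.24, and it reached 0.61 without REST cow 0049.

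KLF4, which maintains epithelial barriers and is also made by endothelial cells and macrophages, had a higher REST mean for both probes. The brightest (A_73_100761, NM_001105385) had values of -2.18, -1.30 and -0.45 in CONT and -1.38, -0.74 and -0.38 in REST. The log2 FC was 0.48 (SE 0.30, 95% interval -0.16 to 1.12, exact permutation p = 0.156). It was 0.30 without CONT cow 1024 and 0.65 without CONT cow 0055, and in the latter fit its unadjusted limma p was under 0.05. The difference was 1.19 on slide 2, where the only CONT cow was 9040, against 0.01 and -0.01 on slides 1 and 3. KLF4 probe 2 gave 0.50 (SE 0.28, exact permutation p = 0.117), and 0.15 with normexp.

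KLF5, a factor of proliferating epithelium, showed no shared direction among its probes. The brightest (A_73_P264976, NM_001083727) had values of -1.64, -1.08 and -0.14 in CONT and -1.36, -1.13 and 0.35 in REST, and its log2 FC was 0.03 (SE 0.36, 95% interval -0.75 to 0.82). Within slides 1, 2 and 3 the difference was 0.04, 0.74 and -0.86, so the slides differed in sign. The highest REST value was that of cow 7043, and the other 5 REST cows lay below the CONT mean. KLF5 probe 2 had a log2 FC of -0.24 (SE 0.39) and ordered the cows like probe 1 (r = 0.878). KLF5 probe 3 gave -0.01 (SE 0.26) and was not related to the others (r = -0.040 and -0.169), although it was detected above background in every cow.

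KLF3, KLF9 and KLF15, which have roles in adipose and metabolic control, had differences between the diets within the spread between cows. The brightest KLF3 probe (A_73_105910, NM_001205978) had values of -0.57, 0.07 and 0.62 in CONT and -0.34, 0.14 and 0.74 in REST, with a log2 FC of 0.13 (SE 0.22, 95% interval -0.35 to 0.62), but 0.01 with slide as a block or without CONT cow 8027. KLF9 (A_73_P086281, NM_001193214) had values of -3.48, -2.50 and -1.98 in CONT and -3.01, -2.52 and -1.33 in REST, with a log2 FC of 0.15 (SE 0.30, 95% interval -0.51 to 0.81). The differences within slides 1, 2 and 3 were -0.36, 0.04 and 0.26 for KLF3 and -0.56, 0.68 and 0.01 for KLF9, with a change of sign in each gene. The dimmer probes of these 2 genes gave 0.34 (SE 0.22) for KLF3 and 0.33 (SE 0.25) for KLF9, and with normexp these were 0.04 and 0.02. KLF15 (A_73_P030961, NM_001082425) was the only gene with a lower REST mean for its brightest probe. Its values were 1.16, 1.95 and 2.67 in CONT and 0.46, 1.90 and 2.57 in REST, and the log2 FC was -0.16 (SE 0.36, 95% interval -0.95 to 0.62), within the spread between cows, and -0.68, 0.26 and -0.24 within slides 1, 2 and 3. KLF15 probe 2 was well above background in 0 CONT and 2 REST cows, so no FC is given for it.

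**Figure D3:**
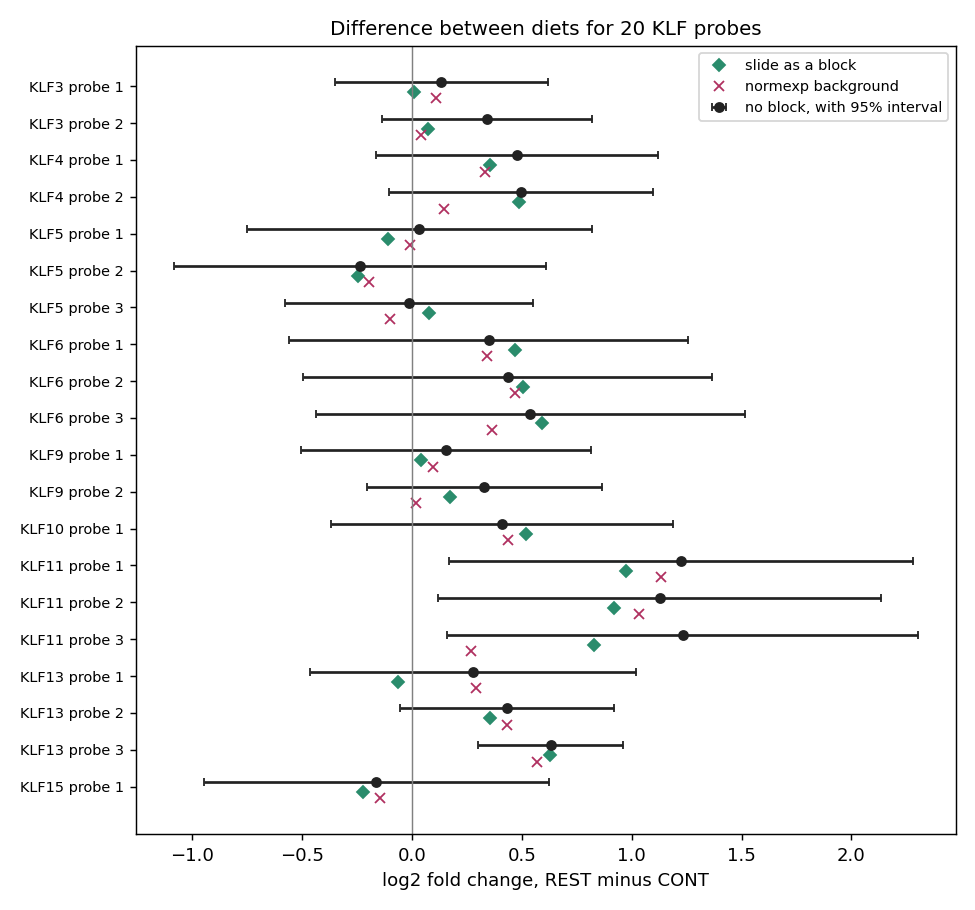
Log2 FC (REST minus CONT, horizontal axis) of the 20 KLF probes above background in both diets, with black points and bars for the fit without a block and its 95% interval, green diamonds for the fit with slide as a block, and red crosses for the normexp background correction. The intervals of the 3 KLF11 probes and of KLF13 probe 3 do not cross 0, and the red cross of KLF11 probe 3 lies at 0.27, far below the 1.23 of the black point.

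Slide changed the difference in several members. Of the same 20 probes, 9 were higher in REST on all 3 slides, and among the brightest probes these were KLF6, KLF10 and KLF11. With slide as a block, 16 of 20 probes were higher in REST and 1, KLF13 probe 3, had an unadjusted limma p under 0.05. With normexp, 16 of 20 probes were higher in REST. In 15 of 20 probes the log2 FC was above 0 in every fit that left out 1 cow.

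**Figure D4:**
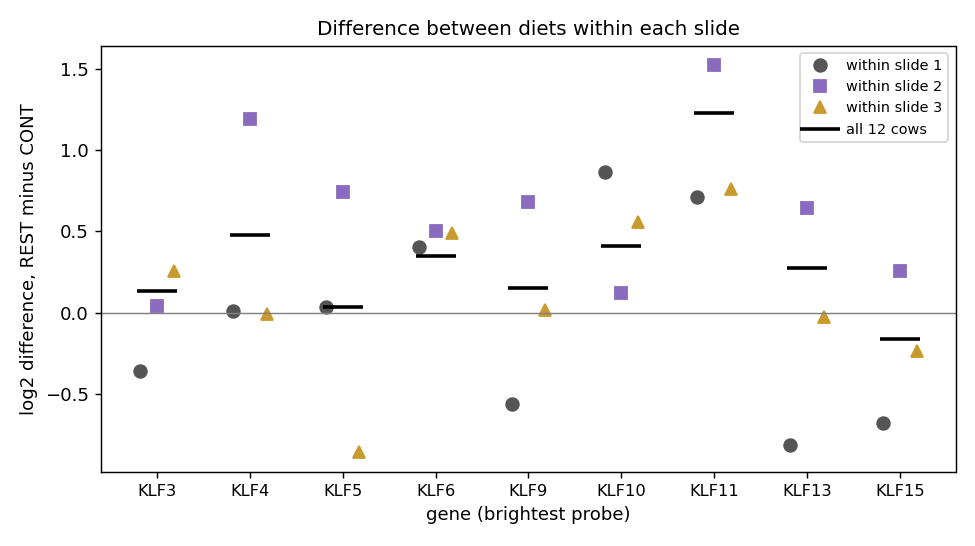
Log2 difference between the REST and CONT means (vertical axis) of the brightest probe of each KLF gene, within slide 1 (circles), slide 2 (squares) and slide 3 (triangles), with a bar for the difference over all 12 cows. KLF6, KLF10 and KLF11 lie above 0 on every slide, whereas KLF13 ranges from -0.81 on slide 1 to 0.65 on slide 2.

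The shifted signals of KLF genes varied together across the cows in 2 sets. KLF3, KLF9 and KLF13 were correlated with each other, and KLF10 was inversely correlated with KLF15. REST cow 0049 had the highest value of KLF3, KLF9 and KLF13, and its array had the lowest 75th percentile of the 12 (386.9). CONT cow 8027, whose array had the highest (1184), had the lowest KLF3 and KLF9 values. The part of this array scale in the correlations was not tested. Of the 36 pairs of brightest probes, 4 had a Benjamini-Hochberg adjusted permutation p under 0.05 for Pearson's r over the 12 cows, but 0 pairs did for Spearman's rho. By Pearson's r, 0 pairs remained under that threshold without CONT cow 8027, 1 without REST cow 0049, and 2 with normexp. KLF3 and KLF9 had r = 0.847 (permutation p = 0.00093, adjusted p = 0.0116) and rho = 0.573 (permutation p = 0.0566, adjusted p = 0.170). KLF9 and KLF13 had r = 0.833 (permutation p = 0.00082, adjusted p = 0.0116) and rho = 0.713 (permutation p = 0.0127, adjusted p = 0.104). KLF3 and KLF13 had r = 0.809 (permutation p = 0.0016, adjusted p = 0.0145) and rho = 0.685 (permutation p = 0.0171, adjusted p = 0.104). For these 3 relations r was 0.607, 0.656 and 0.637 without the 2 cows farthest from the median of the first-named gene. Leaving out extreme cows narrows the range and tends to lower r, so no conclusion is drawn from this. KLF10 and KLF15 had r = -0.806 (permutation p = 0.00097, adjusted p = 0.0116) and rho = -0.769 (permutation p = 0.0051, adjusted p = 0.104). Their r was -0.827 without the 2 cows farthest from the KLF10 median.

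These relations were present in each diet. In CONT and REST, r was 0.867 and 0.836 for KLF3 and KLF9, 0.814 and 0.855 for KLF9 and KLF13, 0.951 and 0.768 for KLF3 and KLF13, and -0.790 and -0.880 for KLF10 and KLF15. A slide held 4 cows, too few for a value within slides, and after diet and slide were removed r was 0.898, 0.902, 0.830 and -0.792 for the same pairs. The rapidly induced genes KLF6 and KLF10 had r = 0.730 (permutation p = 0.0082, adjusted p = 0.0592) and rho = 0.713 (permutation p = 0.0114, adjusted p = 0.104). KLF10 and KLF11 had r = 0.705 over the 12 cows (permutation p = 0.0124, adjusted p = 0.0680), rho = 0.678 (permutation p = 0.0186, adjusted p = 0.104), and r = 0.540 without the 2 cows farthest from the KLF10 median. That relation was 0.963 in CONT and 0.075 in REST, and the difference between the diets was not tested. No pair of 1 gene's probes entered this count.

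**Figure D5:**
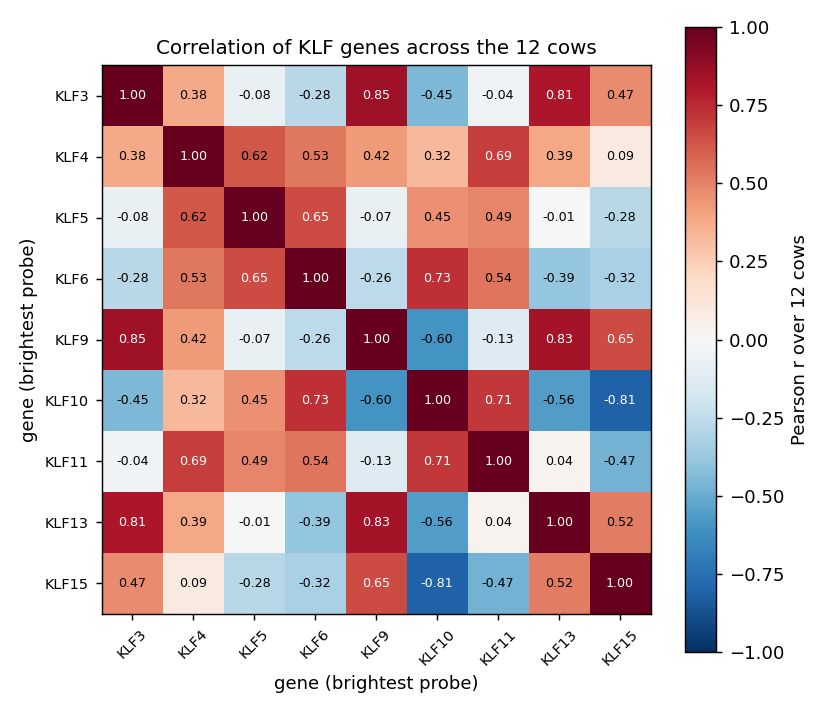
Pearson r over the 12 cows between the brightest probes of the 9 KLF genes, named on both axes, with r written in each cell and coded by colour from -1 (blue) to 1 (red). KLF3, KLF9 and KLF13 have r of 0.81 to 0.85 with each other, and KLF10 and KLF15 have r of -0.81.

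Other members of the wider family and the cofactors that KLF proteins recruit mostly had a lower mean in REST over the 12 cows, but not with slide as a block. Of 15 further KLF and SP genes looked for, 5 were matched, 1 was higher and 4 lower in REST, 0 had an unadjusted limma p under 0.05, and the median log2 FC was -0.19. Under the slide block, 3 were higher and 2 lower (median 0.03). KLF1, the erythroid factor and the 1 higher gene, and KLF12, among the lower, did not stand well above background in any cow. SP1, the ubiquitous factor that binds the same GC boxes, had values of 0.69, 0.91 and 1.06 in CONT and 0.62, 0.69 and 0.76 in REST, a log2 FC of -0.19 (SE 0.12, exact permutation p = 0.0108, unadjusted limma p = 0.136). Of 8 cofactor genes matched of 13, 1 was higher and 7 were lower in REST, 0 with an unadjusted limma p under 0.05, and the median was -0.11. The block split these evenly, 4 higher and 4 lower (median -0.03). Among them were the histone deacetylases HDAC1 (-0.08), HDAC2 (-0.18) and HDAC3 (-0.22) and the corepressor CTBP2 (-0.21), of which HDAC1 was 0.02 with the block.

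Known targets of single KLF proteins were compared next, from lists of textbook targets. The lists do not mark whether a factor activates or represses a target, so a higher mean in REST is no reading of its activity. Among the KLF13 targets, STAR, CCL5 and BCL2L1 were higher in REST, and STAR, which carries cholesterol into mitochondria, was the only gene of these lists with an unadjusted limma p under 0.05. The STAR values were -1.75, -1.28 and -0.24 in CONT and -1.35, -0.25 and -0.04 in REST, with a log2 FC of 0.74 (SE 0.29, exact permutation p = 0.0368). CCL5, the T cell chemokine, had values of 3.23, 3.62 and 4.14 in CONT and 2.86, 4.69 and 5.59 in REST, and its log2 FC of 0.65 (SE 0.41, exact permutation p = 0.171) was within the spread between cows. With slide as a block the CCL5 log2 FC was 0.98, with an unadjusted limma p under 0.05. BCL2L1, an inhibitor of apoptosis, gave 0.10 (SE 0.20).

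The other target lists had 0 genes with an unadjusted limma p under 0.05. Of 9 genes of amino acid and lipid metabolism known as KLF15 targets, 6 were higher and 3 lower, with a median log2 FC of 0.10, but 5 higher and 4 lower with a median of 0.04 after normexp correction, and 6 of the 9 were well above background in every cow. The amino acid genes BCAT2 and PRODH gave 0.09 (SE 0.46) and 0.27 (SE 0.53), and ACSS1, which activates acetate in mitochondria, gave -0.58 (SE 0.28). GPT2, well above background in 4 CONT and 5 REST cows, gave 0.53 (SE 0.26), but 0.23 under the slide block and 0.14 after normexp correction. The remaining KLF15 targets were AASS (0.10), HPD (0.11), PCK1 (0.19), GPT (-0.10) and SLC2A4 (-0.24) by log2 FC, of which GPT turned to 0.07 with the block and HPD to -0.11 with normexp. Of 9 genes of transforming growth factor beta signalling tied to KLF10 and KLF11, 5 were higher and 4 lower, with a median of 0.06 (0.01 with slide as a block, -0.04 with normexp). Of 8 endothelial targets of KLF2 and KLF4, 3 were higher and 5 lower, with a median of -0.07, and with slide as a block 5 were higher and 3 lower, with a median of 0.05. The largest difference was that of S1PR1, a sphingosine phosphate receptor, at 0.55 (SE 0.34, exact permutation p = 0.169), with 6 of 6 REST cows above the CONT mean. That mean (0.13) was lowered by a CONT value of -1.21, and the lowest REST value (0.25) was below the CONT median (0.29). NOS3, the endothelial nitric oxide synthase, gave -0.02 (SE 0.38) and -0.26 with the block, and THBD, thrombomodulin, gave 0.04 (SE 0.34).

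Several KLF genes are induced by glucocorticoids or are immediate early genes, and lists of both kinds were examined. Of 13 glucocorticoid-induced genes, 10 were higher in REST, and the median log2 FC was 0.45. Over all named genes 43.5% were higher in REST, and 1.63% were higher with an unadjusted limma p under 0.05. In this list 3 genes were higher with such a p. These 3 were PER1, a clock gene (0.67, SE 0.30, exact permutation p = 0.0671), ZBTB16, a transcription factor (0.96, SE 0.41, exact permutation p = 0.0541), and ANGPTL4, an inhibitor of lipoprotein lipase (1.83, SE 0.59, exact permutation p = 0.0216). With slide as a block, ANGPTL4 alone kept an unadjusted limma p under 0.05. The cause of these differences was not tested. FKBP5, a classical glucocorticoid target, gave 0.60 (SE 0.34, exact permutation p = 0.104). Its REST mean of 3.02 was raised by a highest value of 4.58, and its medians were 2.61 in CONT and 2.77 in REST. The 3 lower genes were SGK1, a kinase (-0.03, SE 0.28, and 0.07 with the block), NFKBIA, the NF-kB inhibitor (-0.37, SE 0.28), and TAT, a tyrosine-degrading enzyme (-1.64, SE 1.02), which was well above background in 4 CONT and 2 REST cows and gave -0.44 with the block. Of 15 immediate early genes matched of 17, 9 were higher and 6 lower, 0 with an unadjusted limma p under 0.05, and the median was 0.03. The slide block gave 12 higher and 3 lower, with a median of 0.26. The largest difference was that of ZFP36, which encodes an mRNA decay factor, at 0.80 (SE 0.44, exact permutation p = 0.136) and 0.97 with the block, with 5 of 6 REST cows above all CONT cows. FOS gave 0.26 (SE 0.81), JUNB 0.03 (SE 0.53) and EGR1 0.36 (SE 0.32), and with the block these were 0.66, 0.41 and 0.50.

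Markers of cell types in the biopsy also had different means in the 2 diets. All 10 endothelial markers had a higher REST mean (median log2 FC 0.43), and VWF, von Willebrand factor, had an unadjusted limma p under 0.05 (0.79, SE 0.30, exact permutation p = 0.0043). The CONT mean of VWF (1.53) was lowered by a value of 0.12, and its medians were 1.80 in CONT and 2.29 in REST. The mean level of the list was -1.22 to 0.84 in CONT and 0.30 to 1.14 in REST. CONT cow 8027, which had the highest KLF11 value, had the -1.22, and the other 5 CONT cows had 0.57 to 0.84. Without this cow the endothelial median was 0.10, and KLF11 probe 1 had the log2 FC of 1.60 given above. A relation between endothelial markers and KLF11 was not tested. Of 7 fibroblast markers, 6 were lower in REST (median -0.60, and -0.39 with slide as a block). Of these, 3 had an unadjusted limma p under 0.05, against 2.64% of all named genes in either direction. They were COL1A1 (-0.72, exact permutation p = 0.0649), COL1A2 (-0.65, exact permutation p = 0.0325) and LUM (-0.84, exact permutation p = 0.0087). With slide as a block these 3 gave -0.39, -0.45 and -0.83, and only LUM kept an unadjusted limma p under 0.05. The mean level of this list was 2.03 to 2.58 in CONT and 1.06 to 2.52 in REST.

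Leukocyte markers were divided over the 12 cows, with 7 of 14 higher and 7 lower in REST and a median log2 FC of 0.01, against 10 higher and 4 lower and a median of 0.05 with slide as a block. Among T cell genes, CD3E gave -0.09, CD8A -0.22, CD4 0.10 and CD2 0.15. CD3D gave 0.60 (SE 0.26, exact permutation p = 0.0563) and 0.50 with slide as a block. The B cell gene MS4A1 was well above background in 0 CONT and 4 REST cows, so no FC is given for it. The mean level of the leukocyte list was 0.47 to 0.89 in CONT and 0.39 to 1.14 in REST. Of 5 neutrophil markers matched of 6, 3 were higher and 2 lower (median 0.19, and 0.29 with slide as a block). Their mean level ranged from 0.69 to 2.91 in CONT and from -0.59 to 2.97 in REST. Of the 10 secretory epithelium markers, 8 were higher (median 0.20), with a mean level of 5.43 to 5.98 in CONT and 5.56 to 6.24 in REST. With slide as a block 7 were higher (median 0.13). Of 9 myoepithelial markers, 7 were lower (median -0.18), with mean levels of 1.97 to 3.27 and 1.86 to 2.92. With slide as a block 6 were lower (median -0.12). Of 5 adipocyte markers matched of 7, 4 were higher (median 0.25), with mean levels of -3.46 to -1.94 and -2.73 to -2.02. Of these 5, FABP4, a fatty acid carrier, was the only gene well above background in every cow. It gave 1.20 (SE 0.62, exact permutation p = 0.0519) and 1.16 under the slide block, with 6 of 6 REST cows above the CONT mean. The median of the list is that of PLIN1, above background in 1 CONT and 2 REST cows, so it rests on signals near background and was -0.05 with normexp. The part of these cell types in the KLF differences was not tested.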

How the data were processed

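RNA from 12 MG biopsies was labelled with Cy3 and hybridised to a bovine Agilent 4 × 44K array. The authors extracted spot intensities with Feature Extraction, and per the file headers the deposited values are background-subtracted processed intensity values (version 11.0.1.1). The deposited value table of the series held the same processed intensity. Control spots and outlier-marked spots were left out, log2 intensity was shifted by the 75th percentile of each array, and spots of a probe were averaged, leaving 43653 probes from 43803 spots, of which 26832 matched a gene symbol in RefSeq. The probe with the highest mean signal stood for a gene. Diets were compared with limma 3.58.1 in R 4.3.3 (lmFit, eBayes, two-sided), with Benjamini-Hochberg adjustment over all probes. Exact permutation tests were run over all assignments of cows, and correlations used 100000 permutations. The study's Westfall-Young adjustment was run over 100 splits. The fit was tested on simulated data. Alternatives were quantile normalisation, normexp (offset 50), a filter on dim probes, outlier spots kept, the series' value table, slide as a block, an intensity trend, the mean over probes, and each cow left out. The number of arrays limits the precision. KLF members and gene lists were chosen with earlier results of these data known. Genes outside the family were named where their brightest probe had an unadjusted limma p under 0.05, with SP1, HDAC3, CCL5 and further members of each list added as examples after their values were seen. A gene of the KLF13 target list is not reported here. Array gene names follow the array design, and no coordinates are given because the array and gene table use different genome builds.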

Additional observations from a re-analysis of the deposited data

Results flagged for a closer look

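Each KLF probe was checked in each diet for a cow far from the others with Dixon's test, in which the gap of the extreme cow to its neighbour is divided by the range of the 6 cows and set against the test's 95% critical value. Of 42 groups tested, 2 had such a cow, and chance gives about 2.1. In KLF5 probe 1 (A_73_P264976), REST cow 7043 had a log2 signal of 0.35, above the other 5 REST cows. In KLF9 probe 2 (A_73_P435871), CONT cow 1024 had a log2 signal of -4.65, below the other 5 CONT cows. That reading was not well above background, and its array had the smallest share of probes above background (57.6%) and the brightest negative controls (17.3) of the 12.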

How the results depend on the processing

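The higher REST mean of KLF3, KLF4, KLF6, KLF10 and KLF11 (brightest probes) and of KLF13 probes 2 and 3 kept its direction under every alternative run, leaving out single cows included, although KLF3 was down to 0.0061 without CONT cow 8027 and 0.0079 under the slide block. The count of KLF genes with a higher REST mean, 8 of 9, was 6 with slide as a block and 7 to 9 when single cows were left out. The count of KLF probes with an unadjusted limma p under 0.05, 4 at first, was 1 with slide as a block and 1 to 6 when single cows were left out, with 1 left without CONT cow 1076, CONT cow 1024, REST cow 1018 or REST cow 7043, and 2 without CONT cow 0015 or REST cow 0049. The count of genes with such a p in the other lists was 10, and 5 to 12 without single cows, with 5 or 6 without CONT cow 1024 or REST cows 0049, 7043 or 1015. Over all probes the count was 1143, 381 with normexp and 1739 without REST cow 1058.

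Signs turned in probes with small differences. KLF5 probe 1 gave -0.0080 with normexp, -0.11 with slide as a block, and -0.22 to 0.20 without single cows. KLF5 probe 2 gave -0.44 to 0.032 without single cows, turning without CONT cow 8027, and KLF5 probe 3 gave 0.079 with slide as a block and -0.15 to 0.12 without single cows. KLF9 probe 1 gave -0.066 to 0.28 without single cows, and was below 0 without REST cow 0049 or CONT cow 8027 (-0.024). KLF13 probe 1 gave -0.062 with slide as a block. KLF15 probe 1 gave -0.32 to 0.11 without single cows, turning without REST cow 1018. When the mean over all probes stood for a gene, KLF5 gave -0.073 and KLF15 gave 0.0085, the latter including KLF15 probe 2, which was not above background in any CONT cow and for which no FC is given. The cause was not tested.

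The count of correlated KLF pairs, 4, was 2 with normexp, 7 after diet and slide were removed, and 0 to 6 without single cows (0 without CONT cow 8027, 1 without REST cow 0049), with r of the 4 pairs keeping its sign. A filter on dim probes left out KLF11 probe 3, KLF9 probe 2 and KLF15 probe 2, which therefore have no value there. No paired analysis was possible because the replicate numbers only follow the order of the samples and mark no shared animal or day. Dim probes, such as KLF11 probe 3, were limited by the background.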
